A study of Mus musculus with 29 samples.

Results

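The hormone response of the mouse mammary gland was examined through 8 genes: the receptor genes Esr1, Pgr and Prlr, the transcription factor gene Foxa1, the estrogen-responsive genes Areg and Greb1, and the paracrine signal genes Wnt4 and Tnfsf11. The genes were chosen by name, as 8 of the 30818 gene symbols measured, and all 8 were among the 19387 genes that passed the filter on low counts. They were described across 6 diet groups and against epithelial content, taken as the mean log2 level of Epcam and Krt8, a cell surface marker and a keratin of luminal epithelium. RNA was sequenced from 29 libraries of mammary fat pad from C57BL/6N mice of wt genotype.

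In the groups named LFCR (5 libraries), MCR (4) and ICR (5), mice made obese on a 60% fat diet then lost weight on a low-fat diet with 30% calorie restriction, on a Mediterranean-style diet with 30% restriction, or on intermittent calorie restriction. LFD mice (5) were likewise made obese and then changed to a low-fat diet that was not restricted. Obese mice (5) were made obese on the 60% fat diet and stayed obese. Control mice (5) received a control diet. All 6 groups carried an injection of E0771 cells, a mouse mammary cancer line, placed in gland 4 at week 25. The sequenced RNA came from gland 9 on the opposite side, taken at tumor endpoint. The tissue is labelled as normal, although the sample titles begin with "tumor" and the labels also carry the cell line's name. The sources used here give no age at sampling, estrous stage or hormone level. Nothing states that each library is a separate mouse, so the p-values measure the spread between libraries.

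Estrogen and progesterone act in the mammary gland mainly on a minority of luminal cells that carry both receptors. Estrogen receptor alpha, encoded by Esr1, binds DNA at sites opened by the pioneer factor FOXA1 and induces Pgr, Greb1 and Areg, whose product, amphiregulin, acts on neighbouring cells through the EGF receptor and is needed for duct growth at puberty. Progesterone receptor in turn induces Wnt4 and Tnfsf11, which encodes the cytokine RANKL, and these act on nearby cells to drive side branching. Prolactin receptor signals through JAK2 and STAT5 and is needed for alveolar development. Esr1 is also transcribed in adipocytes and stromal cells of the fat pad, and Tnfsf11 in lymphoid tissue, so bulk tissue does not report luminal cells alone. In bulk tissue, fewer cells of a type and less RNA per cell cannot be told apart.

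The genes lie on separate chromosomes apart from 1 pair. On GRCm38, Esr1 spans chr10:4611593-5005614 on the plus strand, Pgr chr9:8899833-8968611 (plus), Prlr chr15:10177238-10349180 (plus) and Wnt4 chr4:137277489-137299726 (plus). Foxa1 lies at chr12:57540628-57546916 (minus) and Greb1 at chr12:16670615-16800886 (minus), both on chromosome 12. Areg lies at chr5:91139599-91148432 (plus) and Tnfsf11 at chr14:78277445-78308043 (minus). All are annotated as protein-coding genes. The 3' part of Prlr overlaps the gene model Gm21973 on the same strand, and Greb1 is overlapped by the antisense gene Gm48140 and by the microRNA model Gm44305. The sources used here do not say how reads in those overlaps were counted, which makes the Prlr and Greb1 levels uncertain to that extent.

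The upstream sequences of Areg and Greb1 are shown because these estrogen-responsive genes both fell in LFCR libraries relative to Control. The 250 bases before the annotated start were read from RefSeq (GRCm38.p6), 5' to 3' along the gene's strand. Capitals in the Areg sequence, chr5:91139349-91139598 on the plus strand, mark TGACGTCA, the cyclic AMP response element, 61 bases before the start, and TATAAA, the TATA box, 31 bases before it. Capitals in the Greb1 sequence, chr12:16800887-16801136 on the minus strand, mark the reverse complement of AGGTCA, the core to which estrogen and other nuclear receptors bind, 88 bases before the start.
Areg: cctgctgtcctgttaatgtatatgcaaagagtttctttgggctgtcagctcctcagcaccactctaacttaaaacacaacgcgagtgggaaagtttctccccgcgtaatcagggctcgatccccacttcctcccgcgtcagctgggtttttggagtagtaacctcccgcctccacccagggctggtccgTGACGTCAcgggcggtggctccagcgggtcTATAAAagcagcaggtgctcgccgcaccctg
Greb1: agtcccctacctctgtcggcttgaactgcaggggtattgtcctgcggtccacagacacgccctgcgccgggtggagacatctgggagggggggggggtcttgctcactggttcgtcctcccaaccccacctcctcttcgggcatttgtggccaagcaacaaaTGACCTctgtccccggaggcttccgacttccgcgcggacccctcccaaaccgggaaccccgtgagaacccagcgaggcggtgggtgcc
Over 32851 RefSeq promoters of the same length, TGACGTCA was in 1.55%, TATAAA on the gene's own strand in 7.59% and AGGTCA on either strand in 14.0%. The longer estrogen response element (GGTCA, any 3 bases, then TGACC) was in 0.0639% of promoters and in 0 of the 12 windows that RefSeq lists for the 8 genes. The forkhead motif TGTTTAC was found before the RefSeq start of Foxa1 itself and before 1 of the 3 Prlr starts. It was in 3.17% of all promoters, searched on both strands. The Foxa1 window, chr12:57546112-57546361, lies within the Foxa1 gene span given above. These matches are descriptions of the letters, and the absence of a match says nothing of binding elsewhere.

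The shallowest library held 16403903 reads and the deepest 49026986 (median 37270234), and the 5 libraries of lane 4 were the shallowest, at 18212783 reads or fewer. Luminal markers were present in every library, and the 12 listed averaged between 10.24 (Obese) and 11.42 (LFD) on the log2 scale. The 6 adipocyte markers averaged 15.54 in LFCR, 15.29 in MCR, 15.39 in ICR, 15 in LFD, 15.40 in Obese and 14.28 in Control libraries. The means of 9 B cell markers split the libraries into 8 between 5.47 and 6.58 and 21 between 10.10 and 12.67. The 8 low libraries were LFCR 1 and 3, MCR 1, 3 and 4, LFD 1, and Obese 1 and 5. Values without them stand beside the calls below. Without them limma called 18.6% of all genes in LFCR, 0.521% in MCR, 13.6% in ICR and 0.882% in LFD against Obese, and 25.4% in LFCR, 0% in MCR, 24.3% in ICR and 3.24% in Obese against Control.

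**Figure D1:**
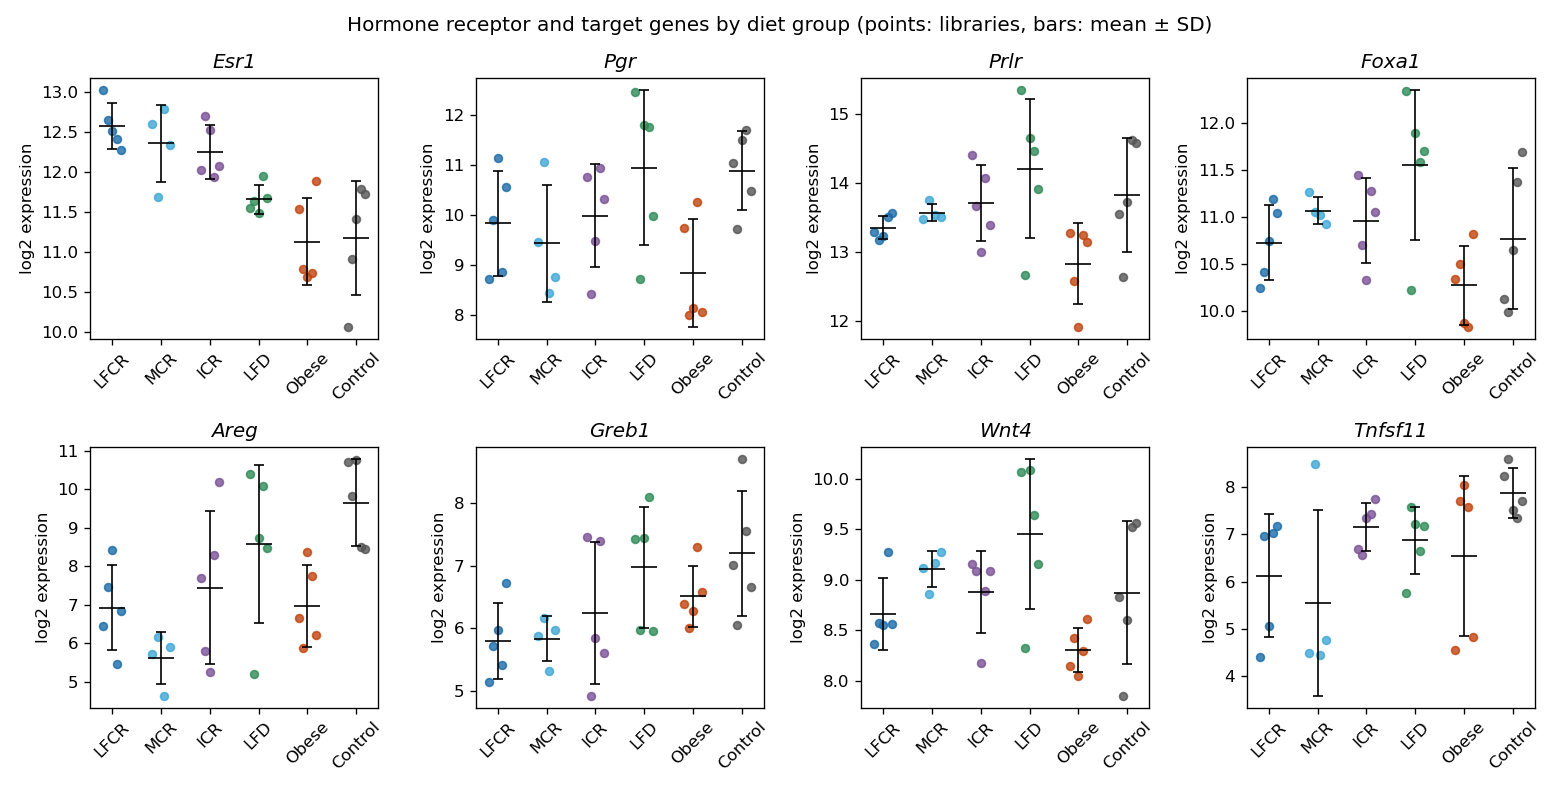
Log2 expression (vertical axis, variance-stabilised scale) of the 8 genes in each library (points) by diet group, with the group mean and SD (bars; n = 5, and n = 4 for MCR). Esr1 was highest in the 3 calorie-restricted groups, Areg in Control, and Prlr, Foxa1 and Wnt4 in LFD, and in each gene neighbouring groups overlapped.

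Esr1, the estrogen receptor alpha gene, rose in each calorie-restricted group relative to Obese and to Control. Normalized counts were 8292, 6402, 5804, 5407 and 4913 in LFCR, 6203, 3278, 7064 and 5170 in MCR, and 4127, 6628, 5864, 3887 and 4266 in ICR libraries. LFD libraries had 2967, 3153, 2831, 3924 and 3239, Obese libraries 2927, 1745, 1613, 1687 and 3748, and Control libraries 1038, 1895, 2686, 3478 and 3348. Of the 14 calorie-restricted libraries, 12 lay above the highest of the 15 others, and the exceptions were MCR 2 and ICR 4. LFCR and ICR did not overlap with Obese or with Control, whereas MCR overlapped with both.

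On the log2 scale Esr1 was higher than in Obese by 1.45 ± 0.28 (SE) in LFCR (adjusted p = 0.000522), 1.23 ± 0.30 in MCR (adjusted p = 0.00694) and 1.12 ± 0.28 in ICR (adjusted p = 0.0104, limma). The ratios of mean counts were 2.63, 2.32 and 2.11. It was the 1 gene of the 8 called in each of these contrasts, in which 21.4%, 12.4% and 9.21% of all genes tested were called. In lanes that held both groups, Esr1 was higher in 4 of 4 for LFCR (0.39 to 1.86), 3 of 3 for MCR (1.01 to 2.05) and 4 of 4 for ICR (0.19 to 2.02). Without the 8 libraries low in B cell markers, the difference was 1.70 in LFCR, 0.95 in MCR, which then kept 1 library (adjusted p = 0.419), and 1.51 in ICR. LFD exceeded Obese by 0.53 ± 0.28 (adjusted p = 0.289).

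Relative to Control, Esr1 rose by 1.40 ± 0.28 in LFCR (adjusted p = 0.00118), 1.18 ± 0.30 in MCR (adjusted p = 0.0109) and 1.08 ± 0.28 in ICR (adjusted p = 0.0291, limma). Here 38.1%, 29.6% and 4.58% of all genes were called. The difference had the same sign in 4 of 4 lanes in each, at 0.69 to 2.97 in LFCR, 0.29 to 2.55 in MCR and 0.21 to 1.29 in ICR. The MCR call was lost without MCR 1 or MCR 3 (adjusted p up to 0.06), and the ICR call without Control 1 or 2 or ICR 1, 2 or 3 (up to 0.115). Without the 8 libraries low in B cell markers the difference was 1.27 in LFCR, 0.52 in MCR (adjusted p = 0.997) and 1.08 in ICR. Obese and Control differed by -0.05 ± 0.28 (adjusted p = 0.921).

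Adipocyte markers were lowest in Control, where 5 of the 6 were called lower than in LFCR and 4 lower than in MCR or ICR. Of all genes, 20.1%, 13.9% and 3.69% were called lower in Control than in LFCR, MCR and ICR. Against Obese the 6 markers moved apart. Lep was called lower in LFCR, MCR, ICR and LFD, whereas Pparg was called higher in LFCR and MCR and Plin1 in LFCR. Equal means of the 6 markers therefore need not be equal adipocyte content. With the 6 adipocyte markers as a covariate, Esr1 was higher than in Obese by 1.33 ± 0.18 in LFCR, 1.32 ± 0.19 in MCR, 1.13 ± 0.18 in ICR and 0.86 ± 0.18 in LFD (adjusted p of 5.81e-06, 2.64e-05, 9.42e-05 and 0.00422, limma). The differences from Control were 0.37 ± 0.24, 0.36 ± 0.23 and 0.17 ± 0.23 in LFCR, MCR and ICR (adjusted p of 0.582, 0.701 and 0.77), and that of Obese from Control was -0.96 ± 0.23 (adjusted p = 0.0251). That model called 27.4%, 26.8%, 16.6% and 14.4% of all genes for LFCR, MCR, ICR and LFD against Obese, but 0.0309%, 0%, 0.144% and 2.66% for LFCR, MCR, ICR and Obese against Control. Within groups Esr1 did not follow epithelial content, with a slope of 0.03 ± 0.20 log2 units per unit (adjusted p = 0.981). Against the B cell markers its slope was -0.11 ± 0.03 (adjusted p = 0.00706), where 53.8% of all genes were called.

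**Figure D2:**
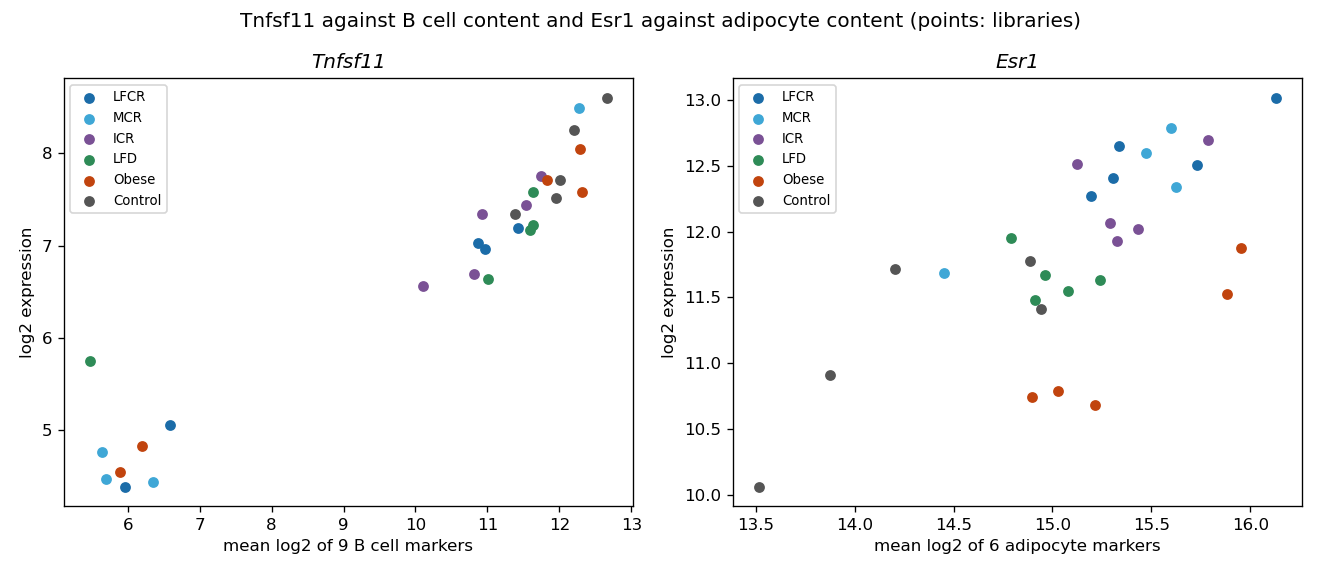
Log2 expression of Tnfsf11 against the mean of 9 B cell markers (left) and of Esr1 against the mean of 6 adipocyte markers (right), 1 point per library, coloured by group. The 8 libraries low in B cell markers also hold the 8 lowest Tnfsf11 values, and Obese libraries lie below calorie-restricted libraries of like adipocyte marker mean in Esr1. That mean includes Lep, which was called lower in the calorie-restricted groups than in Obese.

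Pgr, the progesterone receptor gene and a target of estrogen receptor alpha, fell in Obese relative to Control. Normalized counts were 830, 227, 253, 1191 and 239 in Obese and 2063, 818, 2843, 3267 and 1404 in Control libraries. The groups overlapped, since Obese 1 and 4 exceeded Control 2. The difference was -2.05 ± 0.68 (adjusted p = 0.0478, limma), negative in 4 of 4 lanes (-3.36 to -1.29), with a ratio of mean counts of 0.264. Pgr and Areg were the 2 of the 8 genes called in this contrast, in which 12.9% of all genes were called in either direction and 3.44% as lower.

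The Pgr call lay at the threshold. It was lost without any 1 of 18 of the 29 libraries (Control 1, 3, 4 or 5; Obese 1, 2, 3 or 5; ICR 1, 3 or 5; LFD 3 or 4; LFCR 2, 4 or 5; MCR 1 or 4), with adjusted p up to 0.134. Without the 8 libraries low in B cell markers the difference was -2.09 (adjusted p = 0.134). In the diet groups, Pgr ran widely: 394, 926, 2219, 436 and 1477 in LFCR, 677, 2091, 320 and 403 in MCR, 1711, 316, 686, 1936 and 1241 in ICR, and 5602, 391, 3527, 3425 and 980 in LFD. The group order by mean log2 level was LFD, Control, ICR, LFCR, MCR and Obese, and no diet differed from Obese at the threshold, with LFD at 2.11 ± 0.68 (adjusted p = 0.0658).

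Prlr, the prolactin receptor gene, and Foxa1, the pioneer factor gene, rose in LFD relative to Obese. Prlr had the highest level of the 8 genes per length, at 1462 normalized counts per kb of annotated exon in LFD, 501 in Obese and 1065 in Control. Its normalized counts were 41824, 6510, 25831, 22613 and 15381 in LFD and 9894, 6064, 3831, 9681 and 8969 in Obese libraries. LFD 2 lay within the Obese range, and the other LFD libraries above it. The difference was 1.38 ± 0.39 (adjusted p = 0.0348, limma), positive in 4 of 4 lanes (0.10 to 2.74), and the ratio of mean counts was 2.92.

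In the same contrast Foxa1 had normalized counts of 5211, 1165, 3805, 3065 and 3326 in LFD and 1272, 1425, 912, 883 and 1785 in Obese libraries. Again LFD 2 alone lay within the Obese range. The difference was 1.28 ± 0.34 (adjusted p = 0.0237, limma), positive in 3 of 4 lanes (-0.29 to 2.03), with a ratio of 2.64. With Wnt4, described below, 3 of the 8 genes were called in this contrast, against 5.98% of all genes in either direction and 2.7% as higher. Without the 8 libraries low in B cell markers the differences were close to these but past no threshold, at 1.35 for Prlr (adjusted p = 0.13) and 1.29 for Foxa1 (adjusted p = 0.11).

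Single libraries decided these calls. The Prlr call was lost without LFD 1, 3, 4 or 5 or Obese 1, 2, 3 or 5 (adjusted p up to 0.102) and with lane as a term (1.34, adjusted p = 0.0508), and the Foxa1 call without LFD 1, 3, 4 or 5 or Obese 1 or 3 (up to 0.0662). In the calorie-restricted groups Prlr was between 9279 and 12137 in LFCR, 11418 and 13889 in MCR and 8144 and 21748 in ICR, and Foxa1 between 1185 and 2306, 1924 and 2445, and 1260 and 2778 in the same groups. Control libraries had 11951, 6320, 13499, 25270 and 24646 normalized counts of Prlr and 1090, 992, 1582, 2642 and 3311 of Foxa1, and overlapped with every other group in both genes. Every MCR library exceeded every Obese library in both genes, but the differences did not pass the threshold (Prlr 0.75 ± 0.41, adjusted p = 0.255; Foxa1 0.80 ± 0.36, adjusted p = 0.148).

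**Figure D3:**
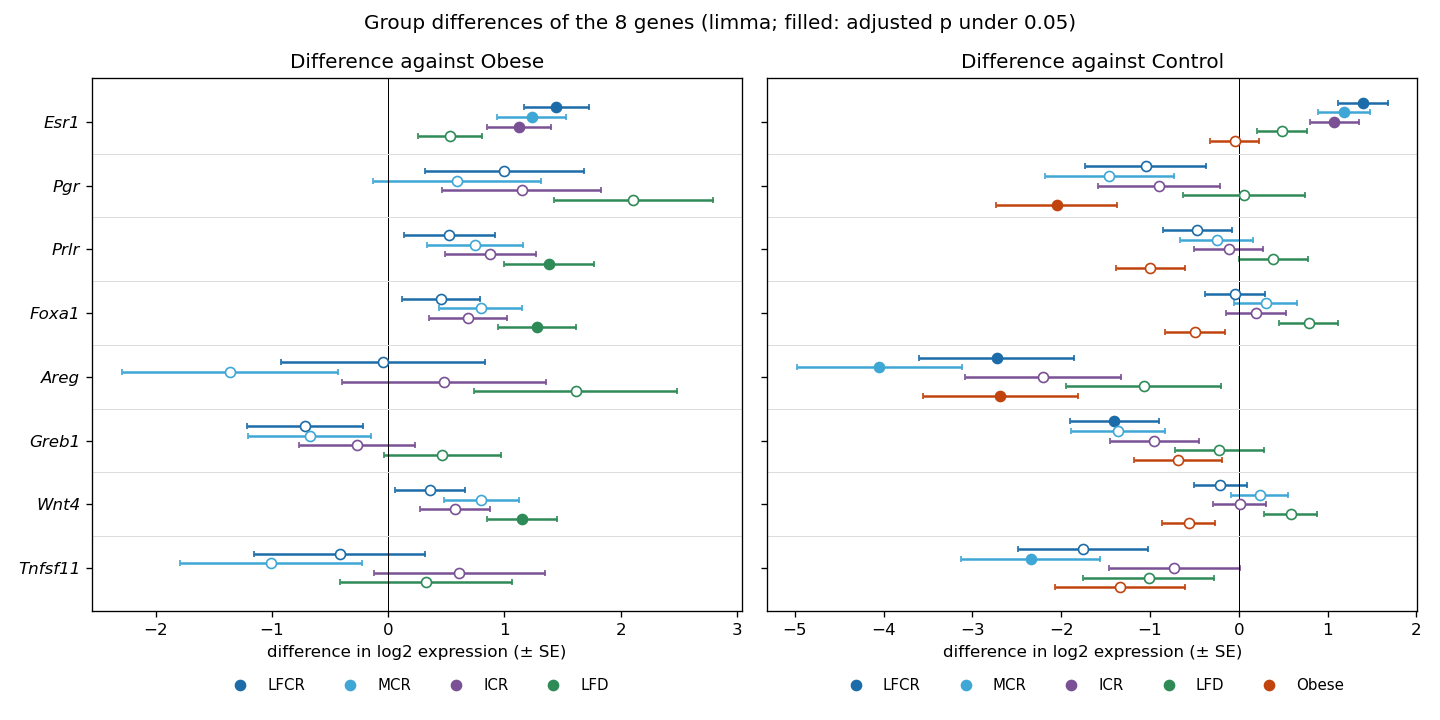
Differences in log2 expression (horizontal axis, ± SE) of each gene from Obese (left) and from Control (right), with filled points where the limma adjusted p was under 0.05. Esr1 was filled for LFCR, MCR and ICR on both sides, Prlr, Foxa1 and Wnt4 for LFD against Obese, and Areg for LFCR, MCR and Obese, Greb1 for LFCR, Tnfsf11 for MCR and Pgr for Obese against Control.

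Areg, the EGF receptor ligand, fell in LFCR, MCR and Obese relative to Control. It had 62.9, 149, 317, 21.6 and 88.2 normalized counts in LFCR, 29, 47.4, 5.18 and 36.4 in MCR, 75.5, 34.5, 308, 187 and 49.4 in Obese, and 1645, 890, 1712, 336 and 326 in Control libraries. None of these 3 groups overlapped with Control. Mean counts were 0.130, 0.0300 and 0.133 times the Control mean in LFCR, MCR and Obese. The log2 differences were -2.73 ± 0.88 (adjusted p = 0.0194), -4.05 ± 0.93 (adjusted p = 0.0085) and -2.68 ± 0.88 (adjusted p = 0.0432, limma), negative in 4 of 4 lanes in each, at -4.25 to -0.08, -4.99 to -2.55 and -4.05 to -0.76.

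Areg spread most within ICR and LFD, where it had 181, 31.9, 16.2, 288 and 1153 and 1313, 15, 402, 1062 and 331 normalized counts. Those groups overlapped with Control, and the differences were -2.20 ± 0.88 in ICR (adjusted p = 0.131) and -1.07 ± 0.88 in LFD (adjusted p = 0.477). The LFCR call was lost without Control 1 (adjusted p = 0.0571), and the Obese call without Control 1, 2 or 3, Obese 1, 2 or 5 or ICR 1 (up to 0.116). Without the 8 libraries low in B cell markers Areg differed from Control by -3.07 in LFCR (adjusted p = 0.0457), -3.49 in MCR with its 1 remaining library (adjusted p = 0.989) and -2.33 in Obese (adjusted p = 0.27).

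Greb1, an early estrogen-induced gene, fell in LFCR relative to Control. It was the lowest of the 8 genes per length, at 3.78 normalized counts per kb of annotated exon in LFCR and 16.1 in Control. LFCR libraries had 13.4, 29.2, 38.7, 19.8 and 80.2 normalized counts and Control libraries 103, 41.9, 390, 163 and 76.3, so that LFCR 5 lay above 2 of the Control libraries. The difference was -1.40 ± 0.50 (adjusted p = 0.0313, limma), negative in 4 of 4 lanes (-1.87 to -0.33). It was lost without Control 1, 3 or 4 or LFCR 1, 3 or 4 (adjusted p up to 0.0965), with lane as a term (-1.33, adjusted p = 0.062) and without the 8 libraries low in B cell markers (-1.25, adjusted p = 0.164).

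Greb1 in MCR, with 35.0, 47.4, 17.6 and 38.6 normalized counts, was -1.36 ± 0.53 from Control (adjusted p = 0.0536). The other groups had 149, 9.40, 33.4, 143 and 25.4 in ICR, 145, 38.8, 148, 248 and 37.8 in LFD, and 58.6, 40.0, 53.0, 132 and 70.5 in Obese libraries. In LFCR, where Esr1 was highest, the estrogen-responsive genes Areg and Greb1 were below Control, and Pgr was not called at -1.05 ± 0.68 (adjusted p = 0.216). With Esr1, 3 of the 8 genes were called in LFCR against Control, where 38.1% of all genes were called. In MCR against Control, Esr1, Areg and Tnfsf11 made 3 of 8, where 29.6% of all genes were called. Both counts are close to that background.

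Wnt4, a progesterone-induced Wnt ligand, rose in LFD relative to Obese. It had 1051, 294, 1061, 770 and 546 normalized counts in LFD and 258, 317, 239, 287 and 365 in Obese libraries, with LFD 2 within the Obese range. The difference was 1.15 ± 0.30 (adjusted p = 0.0236, limma), positive in 3 of 4 lanes (-0.10 to 2.03), with a ratio of mean counts of 2.54. It was lost without LFD 1, 3 or 4 or Obese 1 or 3 (adjusted p up to 0.0753), and without the 8 libraries low in B cell markers it was 1.05 (adjusted p = 0.142). MCR libraries, at 529, 440, 550 and 595, all exceeded the Obese ones, yet the difference of 0.80 ± 0.32 was not called (adjusted p = 0.102). Wnt4 had 301, 354, 348, 594 and 352 in LFCR, 545, 517, 263, 447 and 519 in ICR, and 429, 204, 362, 709 and 726 in Control libraries.

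Tnfsf11, the gene of RANKL, fell in MCR relative to Control, and its levels followed the B cell markers. MCR libraries had 3.41, 334, 3.11 and 6.82 normalized counts, and Control libraries 279, 360, 158, 137 and 183. MCR 2, the 1 MCR library that was not low in B cell markers, lay above 4 of the 5 Control libraries. The difference was -2.35 ± 0.78 (adjusted p = 0.0305, limma), negative in 3 of 4 lanes (-3.78 to 0.97). It was 0.61 ± 0.44 without the 8 libraries low in B cell markers (adjusted p = 0.997) and -0.18 ± 0.30 with the B cell markers as a covariate (adjusted p = 0.772), a model that called 0.645% of all genes in this contrast.

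Over all groups, Tnfsf11 had between 2.68 and 30.2 normalized counts in the 8 libraries low in B cell markers, with a median of 5.53, and between 69.5 and 360 in the 21 others, with a median of 147. Its slope against the mean of the B cell markers within groups was 0.48 ± 0.03 log2 units per unit (adjusted p = 7.13e-12, limma). T cell and lymph node stroma markers also averaged lowest in MCR (7.37 and 7.41) and highest in Control (10.62 and 11.16). The MCR call was also lost without Control 1 or 2 or MCR 1, 3 or 4 (adjusted p up to 0.119). LFCR libraries had 2.68, 99.4, 11.9, 105 and 121, ICR libraries 78.1, 69.5, 136, 147 and 190, LFD libraries 30.2, 166, 123, 74.5 and 118, and Obese libraries 4.23, 183, 239, 166 and 7.84 normalized counts. LFCR did not overlap with Control, yet the difference of -1.76 ± 0.74 was not called (adjusted p = 0.0604).

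Epithelial content was higher in LFD than in any other group on average, and 4 of the 8 genes followed it within groups. The mean of Epcam and Krt8 was 11.32 ± 0.35 in LFCR, 11.82 ± 0.15 in MCR, 11.65 ± 0.33 in ICR, 12.43 ± 0.75 in LFD, 11.14 ± 0.37 in Obese and 12.07 ± 0.58 in Control (SD). The slope, in log2 units of the gene per log2 unit of content, was 1.05 ± 0.18 for Prlr (adjusted p = 0.000756), 0.79 ± 0.14 for Wnt4 (adjusted p = 0.00136), 0.77 ± 0.18 for Foxa1 (adjusted p = 0.015) and 1.44 ± 0.39 for Pgr (adjusted p = 0.0427, limma). Against this, 2.8% of all genes were called. Areg at 1.27 ± 0.57 (adjusted p = 0.388), Greb1 at 0.82 ± 0.32 (adjusted p = 0.245) and Tnfsf11 at -0.67 ± 0.51 (adjusted p = 0.708) did not pass.

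The slopes of Prlr and Wnt4 were called without any 1 library and also without the 8 libraries low in B cell markers (1.02, adjusted p = 0.0479, and 0.85, adjusted p = 0.0366), where 1.12% of all genes were called. The Foxa1 slope was lost without Control 2, LFD 1 or LFD 2 (adjusted p up to 0.239). The Pgr slope was lost without any 1 of 16 libraries (Control 2 or 4; ICR 1 or 2; Obese 1, 2, 3 or 4; LFD 1, 2, 4 or 5; LFCR 1 or 5; MCR 1 or 3; up to 0.333), and with Epcam alone as the measure the Pgr and Foxa1 slopes were not called. LFD 1 had the highest content of the 29 libraries, at 13.28, as well as the highest Pgr, Prlr and Foxa1 counts.

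**Figure D4:**
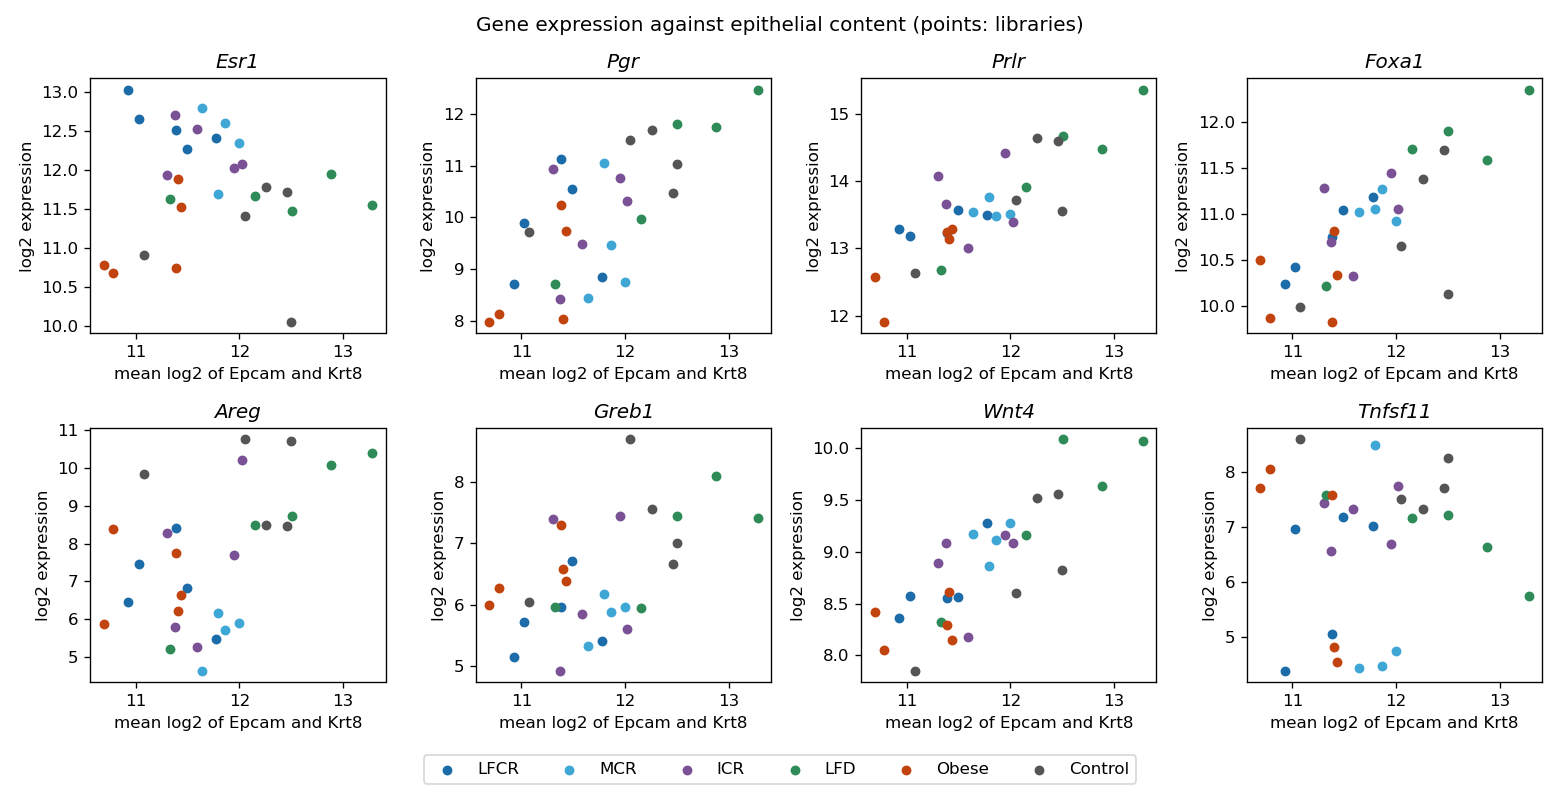
Log2 expression of each gene against epithelial content, the mean log2 of Epcam and Krt8, 1 point per library, coloured by group. Prlr, Foxa1 and Wnt4 rise along the horizontal axis, Esr1 does not, and Tnfsf11 falls into a low set of 8 libraries and a higher set of 21.

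With epithelial content in the model, the called differences of Prlr, Foxa1, Wnt4 and Pgr, which followed it, were smaller, as were those of Areg and Greb1, whose slopes were not called. In LFD against Obese they were 0.03 ± 0.35 for Prlr, 0.29 ± 0.35 for Foxa1 and 0.14 ± 0.28 for Wnt4 (adjusted p of 0.986, 0.86 and 0.919), and in Obese against Control Pgr was -0.71 ± 0.67 (adjusted p = 0.486) and Areg -1.50 ± 0.97 (adjusted p = 0.299). Esr1 kept its calls, at 1.44 ± 0.29 in LFCR, 1.22 ± 0.33 in MCR and 1.11 ± 0.30 in ICR against Obese (adjusted p of 0.000809, 0.0244 and 0.0239), and at 1.42 ± 0.32, 1.19 ± 0.30 and 1.09 ± 0.30 against Control (adjusted p of 0.0048, 0.0115 and 0.042). Areg in MCR against Control also kept its call, at -3.74 ± 0.88 (adjusted p = 0.00897), whereas Areg and Greb1 in LFCR did not, at -1.78 ± 0.92 (adjusted p = 0.123) and -0.79 ± 0.51 (adjusted p = 0.215). This model called 20.9%, 7.52%, 7.39% and 0.0825% of all genes for LFCR, MCR, ICR and LFD against Obese, and 38.2%, 32.1%, 3.69% and 6.6% for LFCR, MCR, ICR and Obese against Control. Luminal markers moved with the Obese and LFD groups. In the model without epithelial content, 5 of 12 fell in Obese relative to Control and 10 rose in LFD relative to Obese. In those contrasts 3.44% of all genes were called lower and 2.7% higher, and Epcam differed by -0.84 and 1.29.

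The unrestricted low-fat diet and the restricted diets were also set against each other. For the mean of LFCR, MCR and ICR minus LFD, 0 of the 8 genes were called by limma, 7 had an unadjusted p under 0.05, 0 were called by voom, and 3.33% of all genes were called. Esr1 was at 0.74 ± 0.23 (adjusted p = 0.0691) and the 7 others at between -0.57 (Wnt4) and -1.92 (Areg). In LFD against Control, 0 of the 8 and 0% of all genes were called, with 1 of the 8 at an unadjusted p under 0.05 and 0 by voom. Across all 6 groups, an F-test called Esr1 (adjusted p = 0.000825) and Areg (adjusted p = 0.0163), and 33.3% of all genes. The Areg call was lost without the 8 libraries low in B cell markers (adjusted p = 0.156), with voom (0.0949) and with the adipocyte covariate (0.161).

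The neighbours of the 8 genes in hormone signalling showed several patterns. Of 15 other estrogen receptor targets measured above the filter, the cadherin gene Celsr2 fell in Obese relative to Control (-0.98, adjusted p = 0.0083) and rose relative to Obese in LFCR (1.63), MCR (1.34), ICR (1.56) and LFD (1.33; adjusted p of 3.34e-05, 0.00114, 0.000166 and 0.00196, limma). Stc2, which encodes a secreted glycoprotein hormone, rose in the same 4 contrasts by 1.00 to 1.18. Nrip1, a corepressor of nuclear receptors, rose in LFCR and MCR relative to Obese (1.00 and 0.74). Called members numbered 4 of 15 in LFCR, 3 in MCR, 2 in ICR and 2 in LFD against Obese, all higher, where 21.4%, 12.4%, 9.21% and 5.98% of all genes were called. Celsr2 and Stc2 also followed epithelial content within groups (slopes of 0.52 and 0.74, adjusted p of 0.0261 and 0.0218). With epithelial content in the model Celsr2 was 1.54, 0.98, 1.29 and 0.66 above Obese in LFCR, MCR, ICR and LFD, the last not called, and Stc2 was called in LFCR alone (0.87, adjusted p = 0.0199). Without the 8 libraries low in B cell markers, Celsr2 was called in LFCR, ICR and LFD (1.75, 1.75 and 1.48), Nrip1 in LFCR and ICR (0.84 and 0.85) and Stc2 in none of the 4 contrasts (adjusted p of 0.0601 or more). In LFCR against Control, 5 of the 15 rose and 6 fell, where 38.1% of all genes were called, with a list median of -0.15 against -0.03 for all genes. Of the 6 that fell, Rara, Myb, Egr3 and Susd3, named after their values were seen, followed the B cell markers within groups (slopes of 0.11 to 0.37, adjusted p of 1.19e-05 or less, limma). The others, Ccnd1 and Myc, did not (slopes of 0.016 and 0.018, adjusted p of 0.564 and 0.514). For this slope 53.8% of all genes were called. B cell markers averaged 9.16 in LFCR and 12.04 in Control, and whether B cell content had a part in these falls was not tested. Of the 15, 4 rose and 2 fell without the 8 libraries low in those markers, where 14.3% and 11.1% of all genes did.

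Among 18 other progesterone and prolactin pathway genes, Stat5a, the transcription factor downstream of the prolactin receptor, fell in Obese relative to Control (-0.56, adjusted p = 0.00845). It rose relative to Obese in LFCR (0.60, adjusted p = 0.00226), MCR (0.62, adjusted p = 0.00589) and ICR (0.45, adjusted p = 0.0363). Tnfrsf11a, the receptor of RANKL, fell in LFCR and MCR relative to Obese (-0.74 and -0.64) and to Control (-0.69 and -0.60; adjusted p of 0.00362, 0.0255, 0.00559 and 0.0252). Lgr4, an R-spondin receptor, rose in Obese relative to Control (1.27) and fell in LFCR and LFD relative to Obese (-0.67 and -0.83). Of the 18, 3 were called in Obese against Control, 3 in LFCR, 2 in MCR, 2 in ICR and 2 in LFD against Obese, with medians of -0.52, 0.04, -0.02, 0.20 and 0.30. All genes were called at 12.9%, 21.4%, 12.4%, 9.21% and 5.98% in these contrasts, so the counts lie near or below the background in the first 4. With epithelial content in the model, 1 of the 18 rose and 0 fell in Obese against Control, and 0 were called in LFD against Obese. There 6.6% and 0.0825% of all genes were called. In the same model 1 rose and 2 fell in LFCR against Obese, 1 and 1 in MCR, and 1 and 0 in ICR. It called 20.9%, 7.52% and 7.39% of all genes in these 3 contrasts. With the 8 libraries low in B cell markers left out, the calls that held were Lgr4 in Obese against Control (0.96), Stat5a in LFCR against Obese (0.60, adjusted p = 0.0316) and Socs2 in ICR against Obese (0.63), and Tnfrsf11a was -0.58 in LFCR and -0.12 in MCR against Obese (adjusted p of 0.0751 and 0.911).

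The EGF receptor ligands did not move together. Hbegf and Btc, which share the EGF receptor with Areg, rose in Obese relative to Control by 1.06 and 2.26 (adjusted p of 0.00127 and 0.000403), whereas Areg fell. Relative to Obese, Hbegf was lower in LFCR (-1.35), MCR (-1.14), ICR (-1.33) and LFD (-1.11), and Btc in LFCR (-1.87), MCR (-1.72), ICR (-1.84) and LFD (-1.23), with adjusted p of 0.0454 or less. Erbb4, a receptor of the family, rose in LFCR and MCR relative to Obese by 1.48 and 1.45 (adjusted p of 0.00102 and 0.00459). Of the 12 genes of this list, 3 were called in Obese against Control, 5 in LFCR, 4 in MCR, 3 in ICR and 3 in LFD against Obese, where 12.9%, 21.4%, 12.4%, 9.21% and 5.98% of all genes were called. With epithelial content in the model, 0 of the 12 were called in LFD against Obese, where 0.0825% of all genes were. In that model 2 rose and 0 fell in Obese against Control, where 6.6% of all genes were called. Against Obese, 1 rose and 4 fell in LFCR, 2 and 2 in MCR, and 0 and 3 in ICR. There 20.9%, 7.52% and 7.39% of all genes were called. When the 8 libraries low in B cell markers were left out, Hbegf kept its calls in Obese against Control (0.88) and in LFCR, ICR and LFD against Obese (-1.18, -1.15 and -0.92), Btc in the first 3 of these (1.73, -1.82 and -1.31) and Erbb4 in LFCR (1.34). In MCR, which then kept 1 library, 0 of the 12 were called.

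Regulators of the hormone-sensing lineage were mostly called in LFD against Obese, in LFCR against Control and against epithelial content. Relative to Control, 4 fell in LFCR (Runx1, Ets1, Prom1 and Gata3) and 2 in MCR (Ets1 and Runx1). In those contrasts 18% and 15.7% of all genes were called lower. With epithelial content in the model, 1 fell and 1 rose in LFCR, and 3 fell in MCR. That model called 38.2% and 32.1% of all genes there. Without the 8 libraries low in B cell markers, 2 fell in LFCR, where 11.1% of all genes were called lower. Ets1 followed the B cell markers within groups (slope of 0.30, adjusted p = 1.7e-11, limma), where 53.8% of all genes were called. Runx1, Prom1 and Gata3 did not (adjusted p of 0.303 or more). Whether B cell content had a part in these falls was not tested. Of 9, 5 rose in LFD relative to Obese, among them Gata3 (1.21), Tfap2a (1.08), Prom1 (1.89) and Spdef (1.04), with adjusted p of 0.0329 or less in these and a list median of 1.04, where 2.7% of all genes were called higher. Against epithelial content, 6 of the 9 were called, all with positive slopes, against 2.7% of all genes. With epithelial content in the model 0 of the 9 were called in LFD against Obese, and without the 8 libraries low in B cell markers 1 was, Tfap2a (1.14). In Obese relative to Control, Gata3 and Prom1 fell (-0.81 and -1.44), where 3.44% of all genes were called lower. In that contrast 0 of the 9 were called with epithelial content in the model or without the 8 libraries low in B cell markers. Prom1, Runx1 and Gata3 were lower in the mean of the restricted groups than in LFD (-1.63, -0.65 and -0.75, adjusted p of 0.0143, 0.039 and 0.0482, limma). There 1.65% of all genes were called lower. With epithelial content in the model 0 of the 9 were called there, where 0.0258% of all genes were. The list median was -0.59, and -0.41 without the 8 libraries.

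Among 11 steroid receptor and steroid enzyme genes measured, 7 rose in LFCR and 7 in MCR relative to Control. In those contrasts 20.1% and 13.9% of all genes were called higher. In MCR, 1 of the 11, Hsd17b1, fell, where 15.7% of all genes were called lower. Leaving out the 8 libraries low in B cell markers, 7 rose in LFCR, where 14.3% of all genes were called higher. MCR then kept 1 library, with a list median of 0.11. Over all libraries, the genes that rose included the glucocorticoid receptor gene Nr3c1 (0.56 and 0.52, adjusted p of 0.00518 and 0.0185, limma). Without the 8 libraries Nr3c1 was 0.39 in LFCR (adjusted p = 0.0311, limma) and 0.12 in MCR. Hsd11b1, which reactivates glucocorticoids, rose in LFCR relative to Control and to Obese (1.67 and 1.73). Of these 11 genes, 0 were called against epithelial content, and 0 had an unadjusted p under 0.05 for that slope. In LFCR against Control the list median was 0.61, beside 5 of 6 adipocyte markers that also rose. Whether adipocyte content had a part in these rises was not tested.

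Genes with the most similar pattern were named by the Pearson r of deviations from group means over the 29 libraries, among 14704 genes. They share libraries, lanes and cell content, and r is given as a description. For Esr1 they were Tmem135 and Hibch (r = 0.90 each) and Apip (0.89). For Pgr the closest was Gm16485 (0.99), a gene model at chr9:8971791-8975773 that starts 3180 bases beyond the annotated end of Pgr on the same strand, followed by Aoc1 (0.92) and Zbtb8a (0.91). Prlr lay closest to Gipc2 and Tmem56 (0.94 each) and Mtmr7 (0.92), and Foxa1 to Proc and Plk2 (0.92 each) and Fam84a (0.90).

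The remaining genes differed in how close a partner they had. Areg had no gene above 0.71 (Ctxn1), followed by Abhd2 (0.69) and D8Ertd82e (0.68), while Greb1 was closest to Aoc1 (0.89), Plod2 (0.82) and Ptpn5 (0.81). Wnt4 lay near Ano9 and Rab15 (0.89 each) and the receptor gene Fgfr2 (0.88). Tnfsf11 matched Bach2, a B cell transcription factor gene, AI504432 and 4833407H14Rik at 0.98 each. Among the 8 genes themselves, Foxa1, Prlr and Wnt4 were close to each other (0.83 to 0.84), as were Pgr and Greb1 (0.77), and Esr1 had a negative r with Tnfsf11 (-0.68) and Areg (-0.41).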

How the data were processed

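The 29 RNA-seq libraries fall into 6 groups named by the treatment label. Total RNA went into stranded libraries and reads of 76 bases were sequenced in pairs, per the labels' protocols. The submitters' processing notes name mm10 as the build and, as tools, DESeq2, HTSeq 0.5.3p9 and TopHat2 2.0.7, without the annotation or counting options. The table deposited by the authors holds log2 values. All columns share 1 lowest value, 3.75, and with a variance-stabilising transform undone, 100% of values were whole reads within a tolerance of 0.01, so counts printed here are recovered, size-factor-normalized counts. That transform is inferred from the values and understates log2 differences of low genes.

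A group-means model was fitted across the 29 libraries in limma 3.58.1, under R 4.3.3 with statmod 1.5.0, with trend and robust moderation, on genes with 10 or more normalized counts in at least 4 libraries. P-values were adjusted with Benjamini-Hochberg over 19387 genes, with a threshold of 0.05. Slopes used group means plus 1 covariate. The script was tested on simulated data. The table holds no count column, so the main test was on the log2 scale, and voom on the recovered reads was an alternative. Other alternatives were the filter, scaling, quality weights, lane as named in the column headers, covariates of epithelial, B cell and adipocyte markers, and leaving out each library. The B cell slope, the adipocyte covariate, the joint epithelial and B cell setting and the refits of the other gene lists were chosen after seeing the data.

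The 8 genes and the lists were chosen with earlier results of these data known. Named genes were the 8, the 4 list members with the smallest F-test p or up to 4 called per contrast, and the 3 most similar genes for each. Gene positions are from GENCODE vM21 (GRCm38, the coordinates of mm10), and 8 of 8 genes matched. Replicate numbers follow the accession order and pair nothing.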

Additional observations from a re-analysis of the deposited data

Results flagged for a closer look

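Among 60 groups of values examined (the 8 genes, Epcam and Krt8 in 6 groups), 3 single libraries stood apart from the rest of their group, and chance flags about 1 in 20 groups. Tnfsf11 had 334 normalized counts in MCR 2, against 3.11 to 6.82 in the 3 other MCR libraries. MCR 2 was also the 1 MCR library with B cell markers at the level of the 21 libraries, at a mean of 12.27. Wnt4 had 594 normalized counts in LFCR 4, against 301 to 354 in the others. Its epithelial content, 11.78, was the highest of the LFCR libraries. Wnt4 had 263 in ICR 3, against 447 to 545 in the others. Epithelial content there was 11.59 and within the ICR range, but its 2 markers disagreed. ICR 3 had the highest Epcam count (3118) and the lowest Krt8 count (2992) of the ICR libraries, and also the lowest Prlr and Foxa1 counts (8144 and 1260).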

How the results depend on the processing

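Libraries could not be paired by replicate, because the labels give the groups no shared replicate numbers. The column headers give each group at most 1 library per lane, and the fit with lane as a term sets groups against each other within lanes. It ended the calls of Pgr and Areg in Obese against Control (-2.01 and -2.77, adjusted p of 0.0796 and 0.0636), Prlr in LFD against Obese, Greb1 in LFCR against Control, and the epithelial slopes of Pgr and Foxa1 (1.75 and 0.83, adjusted p of 0.153 and 0.141), and 0 other calls of the 8 genes. Esr1 kept its calls in all 43 alternatives for LFCR and ICR against Obese, in 42 for LFCR against Control, in 40 for MCR against Obese, and in 36 each for MCR and ICR against Control. Areg kept its call in 38 of 43 for MCR against Control and 39 for LFCR, against 26 for Obese, and Pgr kept its call for Obese in 16. The differences of 2 calls reversed without the 8 libraries low in B cell markers: Tnfsf11 in MCR against Control at 0.61, and at 0.51 with epithelial content as a covariate too, and Wnt4 in LFD against Obese at -0.02 in the latter fit.

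The number of the 8 genes called in Obese against Control, 2 in the report, was 0 with no filter, voom, lane as a term, the epithelial or B cell covariate, or without the 8 libraries (with or without the epithelial covariate), and 1 on log2(normalized count + 1), with only the groups compared or with the adipocyte covariate. In LFD against Obese, 3 became 0 with the epithelial covariate, without the 8 libraries (in both fits) and with only the groups compared, and 5 with quality weights. Quality weights gave 3 for LFCR, 5 for MCR and 4 for ICR against Obese, where they called 39.8%, 50.9% and 23.2% of all genes. They gave 5 for MCR against Control (55.6% of all genes) and 2 for the restricted mean against LFD (22.1%). The F-test then had 8 (69.8%) and the epithelial slope 2 (2.08%). For LFD against Obese, quality weights called 19.3% of all genes. MCR against Obese had 0 without the 8 libraries in both fits. The adipocyte covariate gave 0 for LFCR, MCR and ICR against Control and 1 for the F-test. MCR against Control had 0 with the B cell covariate, without the 8 libraries in both fits, or with only the groups compared. ICR against Control had 2 without the 8 libraries in both fits and 0 with only the groups compared. The restricted mean against LFD had 1 with the B cell covariate or only the groups compared. The F-test called 1 with voom, 4 with quantile normalization and 5 with the B cell covariate. In these settings it called 34.8%, 33.8% and 39.4% of all genes. The epithelial slope called 2 with lane as a term, without the 8 libraries, or with Epcam alone. The causes were not tested.

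Leaving out 1 library at a time gave 0 to 3 called for Obese against Control, 0 to 4 for LFD, 1 to 1 for LFCR, 1 to 2 for MCR and 1 to 1 for ICR against Obese. It gave 0 to 0 for LFD, 1 to 4 for LFCR, 1 to 5 for MCR and 0 to 2 for ICR against Control, 0 to 4 for the restricted mean against LFD, 2 to 6 for the F-test and 2 to 4 for the epithelial slope. Lane 4 was shallowest, and low genes such as Greb1 and Tnfsf11 are the least precise at this depth. Counts carry no molecular identifiers, and depth here limits counting error only.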
